A study of Mus musculus with 272 samples.

Results

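The Hippo pathway effectors examined here were 10 genes, *Yap1*, *Wwtr1*, *Tead1*, *Tead2*, *Tead3*, *Tead4*, *Lats1*, *Lats2*, *Vgll2* and *Vgll3*, picked by gene name from the GENCODE M21 annotation of the mouse genome mm10, which lists 21938 protein-coding genes among 55413 genes. For each gene, the promoter was taken as 3 kb either side of every annotated transcription start site, and the surrounding window as the gene with 50 kb either side. The question was in which chromatin state these genes lie in muscle stem cells (MuSCs). Of the 10 promoters, 9 were open and carried both active histone marks in both replicates without the repressive mark, beside 44.4% of all protein-coding genes. *Tead4* was open with H3K4me3 alone, a state of 6.36% of all genes. No promoter had a listed peak of the repressive mark in either replicate. Only 4.81% of all genes had one in both, so that this count is near the share of all genes.

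The Hippo pathway is a kinase cascade that limits the activity of the transcriptional co-activators YAP (from *Yap1*) and TAZ (from *Wwtr1*). The kinases LATS1 and LATS2 phosphorylate YAP and TAZ and keep them out of the nucleus, whereas unphosphorylated YAP and TAZ bind the DNA-binding TEAD proteins and turn on target genes. Vestigial-like proteins, encoded by the *Vgll* genes, bind TEAD proteins too. In muscle, YAP is known to favour the proliferation of MuSCs, and TEAD sites, first described as MCAT elements, lie in the promoters of many muscle genes.

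The 8 libraries came from GFP+ MuSCs sorted by FACS from hindlimb muscle of Pax7 Cas9 mice, in which Cre driven from *Pax7*, a gene of satellite cells, switches on a Cas9-EGFP transgene at *Rosa26*. All libraries share this genotype, and no edited, treated or wild-type cells stand beside them in these assays. The labels give neither age nor strain for these libraries. The series also lists an input library for H3K27me3 and H3K4me3 together, and another for H3K27ac. The remaining samples measured the outcomes of CRISPR-Cas9 editing in such cells. Neither the inputs nor these samples were used here. ATAC-seq, which reports open chromatin, and ChIP-seq for H3K4me3 (promoters), H3K27ac (active promoters and enhancers) and H3K27me3 (the repressive Polycomb mark) were each done with 2 replicates. The labels do not say whether replicates came from separate animals, so that the spread between them may be technical.

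Each value below is the fold enrichment that the authors' peak caller gave at the summit of a peak in 1 library, over the local background. Values are given for replicate 1 and then replicate 2, and no test was run, since there is 1 cell population, the lists hold no read counts and the depth is unknown. The lists hold between 6080 and 140937 peaks, fewest for H3K27me3 (6080 and 10485), whose peaks were listed by p-value and not by q-value as in the other lists. The H3K27me3 peaks were narrow, with median widths of 176 and 181 bp. Of them, 68.3% and 34.8% overlapped a peak of the other replicate, so that absence from these lists does not show absence of the mark. Of 13 MuSC marker genes, 13 had promoter peaks of ATAC-seq and of H3K4me3 in both replicates, 12 had H3K27ac (not *Calcr*), and 0 had H3K27me3. Over all protein-coding genes the shares were 67.8% for ATAC-seq, 60.8% for H3K4me3, 46.6% for H3K27ac and 4.81% for H3K27me3. ATAC-seq peaks were found at 4 of 6 fibro-adipogenic, 5 of 6 endothelial, 4 of 6 blood and 5 of 6 myofibre markers, H3K4me3 at 3 of 6 fibro-adipogenic, 2 of 6 endothelial, 2 of 6 blood and 3 of 6 myofibre markers, and H3K27ac at 1 of 6 fibro-adipogenic, 1 of 6 endothelial, 1 of 6 blood and 2 of 6 myofibre markers in both replicates. H3K27me3 was found in both replicates at 1 of 6 fibro-adipogenic, 0 of 6 endothelial, 0 of 6 blood and 2 of 6 myofibre markers. *Dpt*, *Tek*, *Cd68* and *Mylpf* carried both active histone marks in both replicates, whereas *Pecam1* and *Cdh5*, which were open, and *Dcn* and *Lum*, which were not, had 0 peaks of either. The part that other cell types have in the peaks below was not tested.

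All 10 promoters had an ATAC-seq peak in both replicates, as did 67.8% of all protein-coding genes. All 10 also had H3K4me3 in both replicates, against 60.8% of all genes. H3K27ac was present in both replicates at 9 promoters, against 46.6% of all genes, and H3K27me3 at 0 promoters in either replicate, against 4.81% in both replicates. With so low a share, 0 of 10 genes is near the rest of the genome. The combination of ATAC-seq, H3K4me3 and H3K27ac without H3K27me3 was found at 9 of the 10 genes and at 44.4% of all genes. *Tead4* was the exception, with ATAC-seq and H3K4me3 but neither H3K27ac nor H3K27me3, a state shared by 6.36% of all genes. A gene with more start sites has more promoter windows, and these genes had a median of 5.5 start sites, against 3 over all protein-coding genes.

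**Figure D1:**
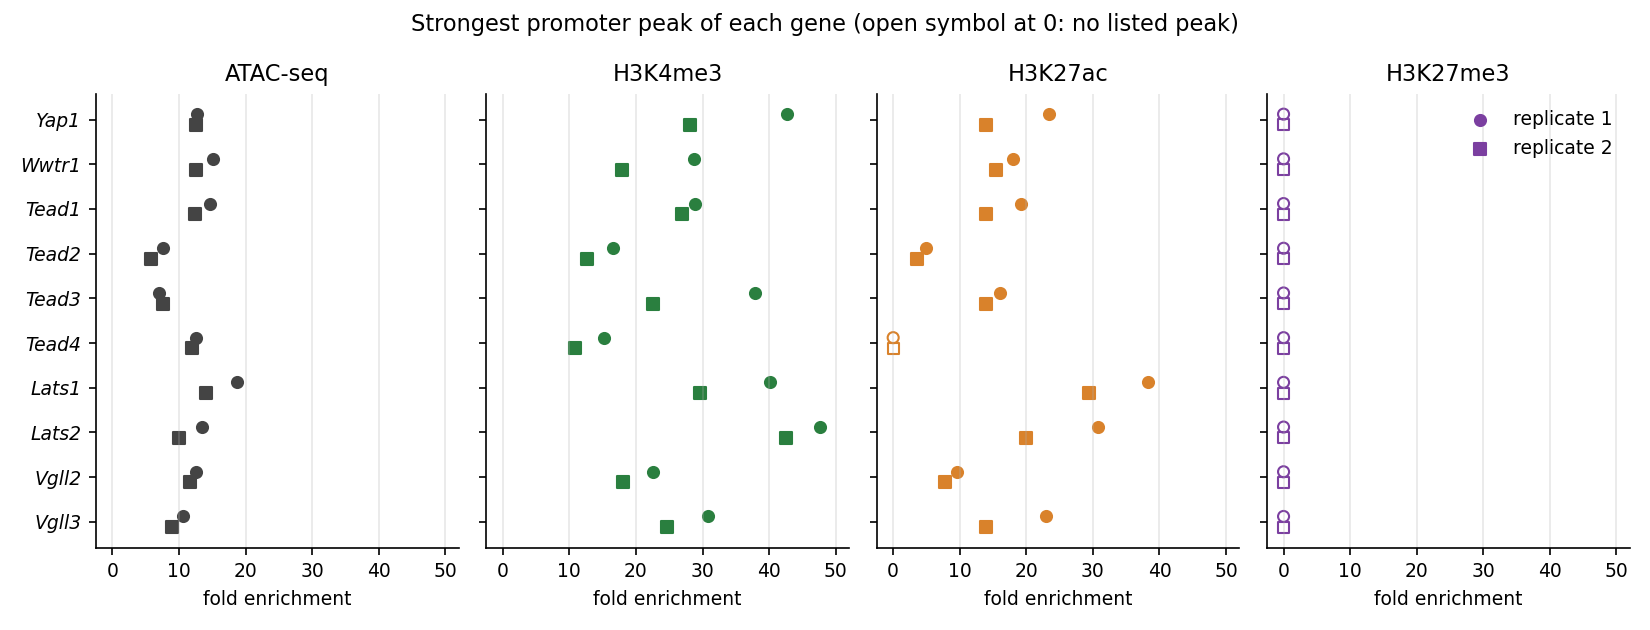
Fold enrichment at the summit of the strongest promoter peak of each gene in ATAC-seq, H3K4me3, H3K27ac and H3K27me3, with circles for replicate 1, squares for replicate 2 and open symbols at 0 where no peak was listed. *Lats2* reaches the highest H3K4me3 (47.7 and 42.5), *Lats1* the highest H3K27ac (38.3 and 29.4), *Tead2* has the lowest H3K27ac (4.98 and 3.52), and *Tead4* has none.

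The strongest promoter peaks spanned a wide range among the 10 genes. For H3K4me3 the fold enrichment ran from 15.2 to 47.7 with a median of 29.8 in replicate 1, and from 10.8 to 42.5 with a median of 23.7 in replicate 2. All marked protein-coding genes had medians of 23.9 and 17.6. For H3K27ac the medians of the 9 marked genes were 19.2 and 14, beside 13.9 and 12 over all marked genes. ATAC-seq was close to the rest of the genome, with medians of 12.6 and 11.7 beside 13.3 and 12.2, and 4 of the 10 genes lay above the median of all genes in each replicate. For both histone marks the same gene was highest and the same gene lowest in the 2 replicates, whereas *Yap1*, *Tead1* and *Tead3* had the same H3K27ac value of 14 in replicate 2 and shared rank 3605 of its list.

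*Yap1* (ENSMUSG00000053110.13, chr9:7931999-8004596, minus strand) encodes YAP. Its strongest promoter peaks had folds of 12.7 and 12.6 in ATAC-seq, 42.7 and 28.1 in H3K4me3, and 23.4 and 14 in H3K27ac. Both replicates were therefore high for H3K4me3, above 94.8% and 87.4% of the marked genes. H3K27ac differed more between the replicates, in shape as well as in height. It formed 1 peak of 2412 bp in replicate 1 and 3 separate peaks in replicate 2, the strongest of 1069 bp. Within the open promoter, ATAC-seq showed 2 summits of like height in replicate 1, one of 12.7 at the first start site and one of 12.5 centred 1.09 kb downstream of it. The ATAC-seq and H3K27ac promoter peaks lay at the first group of start sites, and a start site 38.8 kb into the gene had 0 peaks of any list within 1 kb. The transcripts *Gm20416* and *Gm45494* also start within 3 kb, so that the peaks cannot be given to *Yap1* alone. The 173 kb window of *Yap1* held 17 and 8 ATAC-seq peaks, of which 5 and 4 were in the promoter, and 0 distal elements with H3K27ac in both replicates.

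*Wwtr1* (ENSMUSG00000027803.14, chr3:57455649-57575910, minus strand) encodes TAZ. The promoter had folds of 15.1 and 12.6 in ATAC-seq, 28.7 and 17.9 in H3K4me3, and 18 and 15.4 in H3K27ac. Its fold was near the middle of the marked genes for H3K4me3 (above 64.4% and 51.3% of them), but its peak was among the widest. The H3K4me3 peak spanned 4633 bp and 3535 bp and the H3K27ac peak 3058 bp and 3088 bp, both reaching from the start site into the gene. The widest H3K4me3 peak of *Wwtr1* exceeded that of 98.1% and 97.7% of marked genes. In each replicate, H3K4me3 at *Wwtr1* was wider and lower than at *Yap1*.

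The RefSeq promoter sequences of both co-activators (GRCm38.p6, the build of the peak lists) cover 250 bases before and 50 bases after the start. They are shown by rule, whatever motifs they hold. Each holds 1 copy of the hexamer GGAATG, the core of the site bound by TEAD proteins, through which YAP and TAZ act. Both sequences are written in the direction of transcription, with GGAATG (or CATTCC on the other strand) in capitals. RefSeq also gives *Wwtr1* another, overlapping promoter (chr3:57575827-57576126), which holds the same copy of GGAATG and is not shown.
*Yap1* (chr9:8004547-8004846, minus strand): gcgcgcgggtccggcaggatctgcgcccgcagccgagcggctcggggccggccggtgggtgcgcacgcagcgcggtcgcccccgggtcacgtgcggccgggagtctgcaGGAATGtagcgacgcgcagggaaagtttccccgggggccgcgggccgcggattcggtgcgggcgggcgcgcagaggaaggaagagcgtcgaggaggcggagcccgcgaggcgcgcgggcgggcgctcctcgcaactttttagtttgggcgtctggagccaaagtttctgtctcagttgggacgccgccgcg
*Wwtr1* (chr3:57575861-57576160, minus strand): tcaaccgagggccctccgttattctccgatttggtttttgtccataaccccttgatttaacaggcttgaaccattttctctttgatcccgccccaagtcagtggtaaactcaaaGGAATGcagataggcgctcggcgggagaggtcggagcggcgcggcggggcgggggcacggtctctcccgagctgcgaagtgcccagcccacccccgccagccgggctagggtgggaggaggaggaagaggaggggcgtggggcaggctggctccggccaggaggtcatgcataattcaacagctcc

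Of the 10 genes, 8 had an entry in the RefSeq promoter table, with 12 promoters among them, and *Tead1* and *Tead4* had none. GGAATG on either strand was found in promoters of 5 of the 8 genes, namely *Yap1*, *Wwtr1*, *Tead3*, *Lats2* and *Vgll3*, and in 7 of the 12 promoters, some of which overlap. It was found in 14.7% of all 32851 promoters in the table, and in at least 1 promoter of 14.1% of the 10373 genes that had H3K4me3 in both replicates. *Lats1*, *Tead2* and *Vgll2* had 0 matches. The E box CANNTG was in 3 of the 8 genes, against 66.9% of those marked genes, and the AP-1 site TGANTCA in 0, against 5.8%. The members' promoters had a median GC content of 65.3%, against 61.3%. A match is a description of the sequence and says nothing of binding, which these libraries did not measure. All motifs were searched on both strands. None of them contains another, although neighbouring matches may share bases.

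The richest promoter in GGAATG was that of *Tead3*, with 3 matches in 1 of its 3 RefSeq promoters. This promoter was chosen for display after its matches had been counted.
*Tead3* (chr17:28350551-28350850, minus strand): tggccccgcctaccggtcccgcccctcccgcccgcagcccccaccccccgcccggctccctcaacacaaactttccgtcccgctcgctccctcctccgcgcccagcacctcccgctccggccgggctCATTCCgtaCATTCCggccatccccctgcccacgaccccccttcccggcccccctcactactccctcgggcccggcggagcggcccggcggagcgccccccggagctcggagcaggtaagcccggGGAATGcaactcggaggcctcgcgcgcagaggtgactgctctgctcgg

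The 4 TEAD genes encode the DNA-binding partners of YAP and TAZ, and include the 2 promoters lowest in both active histone marks, those of *Tead2* and *Tead4*. *Tead1* (ENSMUSG00000055320.17, chr7:112679318-112906807, plus strand) had strongest promoter peaks of 14.6 and 12.4 in ATAC-seq, 28.8 and 26.9 in H3K4me3 and 19.2 and 14 in H3K27ac. The histone peaks lay at the first group of 4 start sites, and the non-coding gene *2310014F06Rik* starts within 3 kb of them. Within 1 kb of that group ATAC-seq reached 14.6 and 7.35. The 12.4 of replicate 2 was that of a peak whose summit lay 1405 bp from the nearest of an internal group of 6 start sites, 80.1 kb downstream, and within 1 kb of that group ATAC-seq reached 4.12 and 3.68. Around the internal group H3K27ac was also present, at 9.36 and 4.41 within 1 kb of a start site, but 0 H3K4me3 peaks lay within 1 kb in either replicate. The nearest was a weak H3K4me3 peak of 4.68, found in replicate 1 alone.

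*Tead3* (ENSMUSG00000002249.21, chr17:28331671-28350817, minus strand) had low ATAC-seq folds of 6.97 and 7.6, above 12% and 17.6% of open promoters. Its H3K4me3 was nevertheless 37.9 and 22.6, and its H3K27ac 16.1 and 14. The ATAC-seq peak was wide for its height, with 757 bp in replicate 1. The second group of start sites, 14.3 kb downstream, had 0 peaks within 1 kb in any list.

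*Tead2* (ENSMUSG00000030796.17, chr7:45215753-45233644, plus strand) had the weakest promoter that still carried every active feature. H3K27ac was 4.98 and 3.52, in peaks of 257 bp and 288 bp, above 6.5% and 0.523% of the marked genes. H3K4me3 was 16.5 and 12.6, above 29.8% and 30.6%. The highest ATAC-seq folds in its promoter windows, 7.6 and 5.76, lay over 3 kb from any *Tead2* start, downstream of the gene beside *Cd37*. At the first group of start sites ATAC-seq reached 5.91 and 4.56. The H3K27ac peak of replicate 2 had a −log10 q of 2.27, so that *Tead2* was lost when a −log10 q of at least 5 was asked of every peak, which left H3K27ac at 8 of the 10 genes. The width of the promoter peaks sets *Tead2* apart too, with 1149 bp and 914 bp of H3K4me3, the narrowest of the 10 genes in both replicates.

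*Tead4* (ENSMUSG00000030353.15, chr6:128224288-128300823, minus strand) had the lowest H3K4me3 of the 10 genes, 15.2 and 10.8, in peaks of 1473 bp and 1378 bp at the first start sites. No H3K27ac peak was listed in its promoter in either replicate. At a depth that is unknown, absence from the list does not show absence of the mark. The same start sites were open, with ATAC-seq folds of 8.35 and 8.59, and an internal start site 25.2 kb downstream was more open, with 12.6 and 11.9, but had 0 H3K4me3 peaks within 1 kb. The whole 177 kb window of *Tead4* held a single H3K27ac peak, in replicate 1 alone, with a fold of 3.13 at a promoter of another gene 49 kb upstream. The other H3K4me3 peak of the window, 16.3 and 10.5, lay 100 kb downstream at the start of *Gm10010*.

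**Figure D2:**
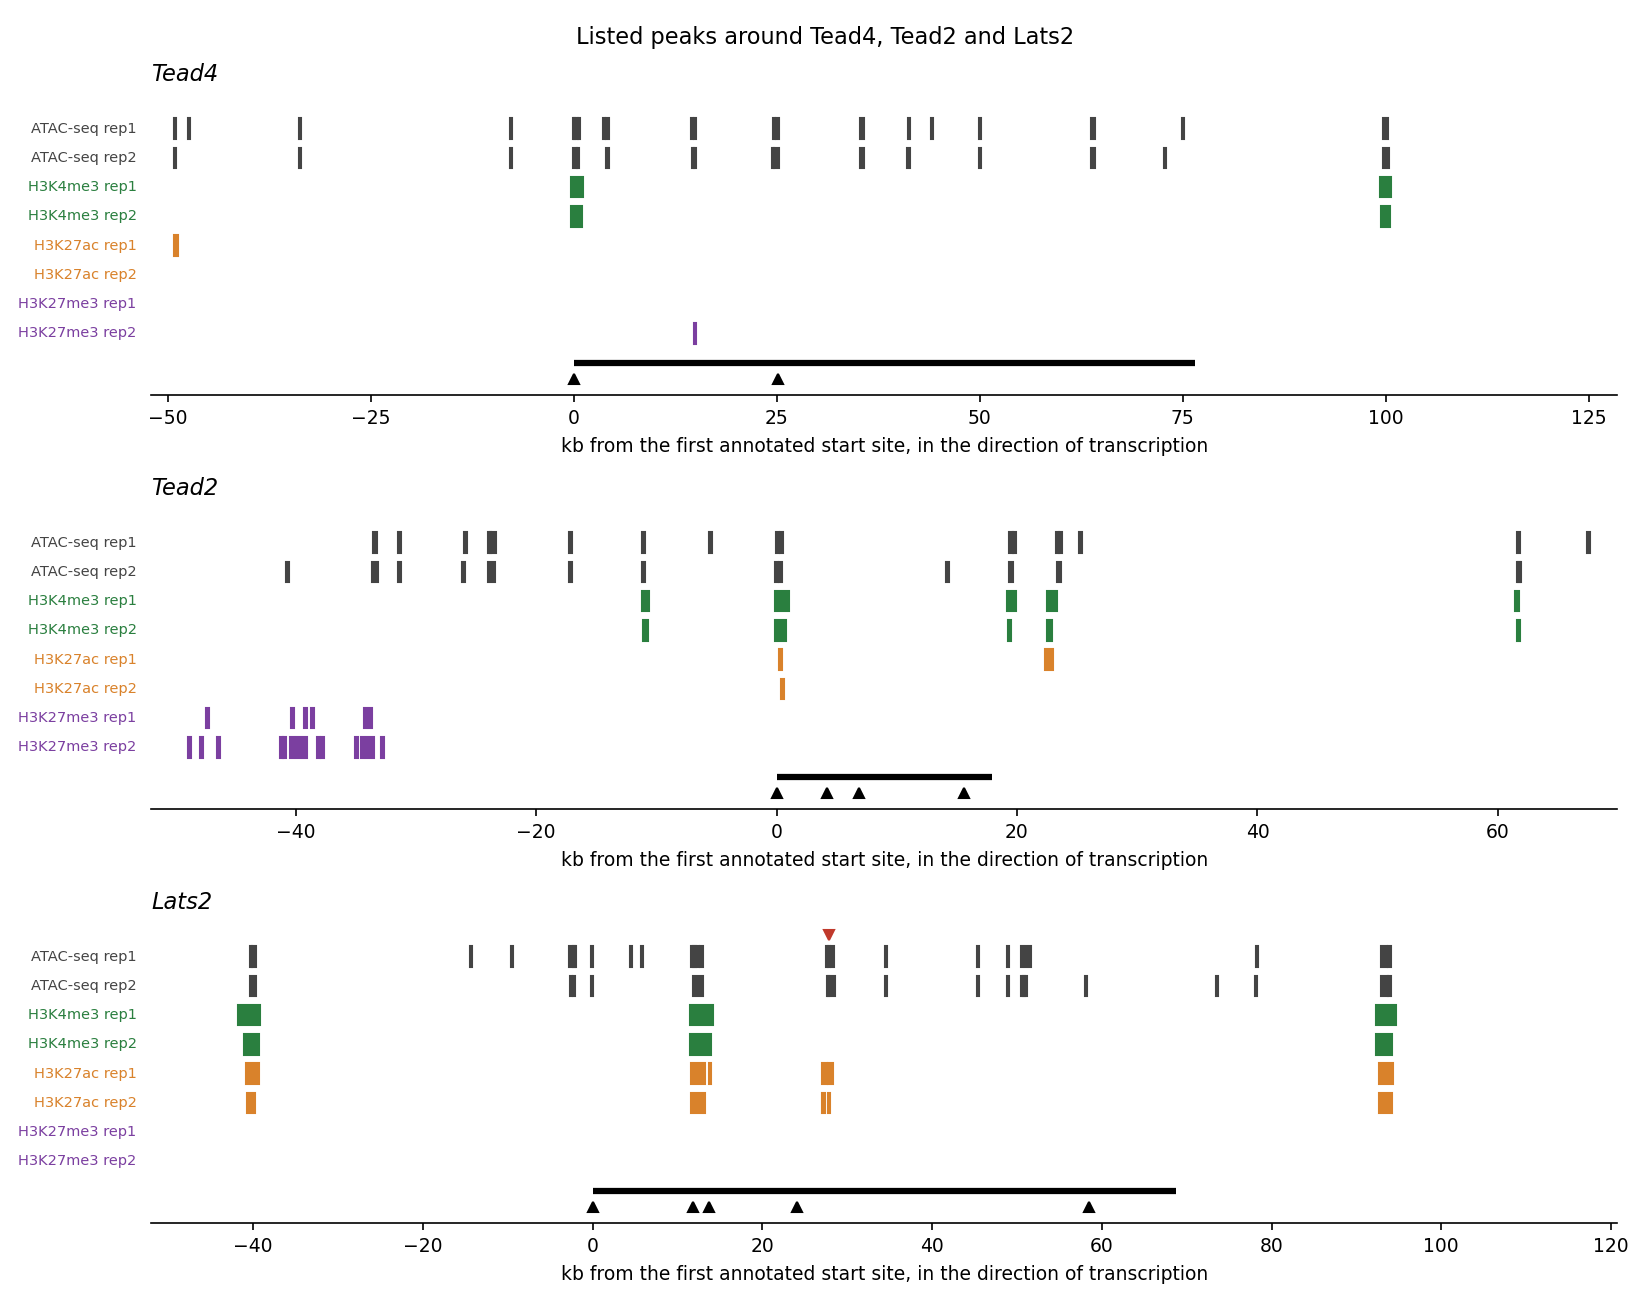
Listed peaks around *Tead4*, *Tead2* and *Lats2*, in kb from the first annotated start site in the direction of transcription, with 1 line per library, the gene as a black bar, groups of start sites as black triangles and distal elements with H3K27ac in both replicates as red triangles. Peaks are drawn at their width, the narrowest thickened to be visible. The *Tead4* window holds H3K27ac at its far left edge in replicate 1 alone, the H3K27me3 of the *Tead2* window lies at least 32.7 kb upstream of the gene, and the histone marks of *Lats2* sit 11.8 kb inside the annotated gene.

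*Lats1* and *Lats2* encode the kinases that inactivate YAP and TAZ, and theirs were the 2 highest promoters for H3K27ac in both replicates. *Lats1* (ENSMUSG00000040021.13, chr10:7681214-7716460, plus strand) had the highest H3K27ac of the 10 genes, 38.3 and 29.4, above 97% and 96.1% of the marked genes. ATAC-seq was 18.7 and 14, and H3K4me3 was 40.1 and 29.6. *Pcmt1*, which encodes a protein repair enzyme, starts within 3 kb on the other side, and the peaks span both starts. A second *Lats1* start site 10 kb downstream had 0 peaks within 1 kb in any list. The *Lats1* window held 12 and 5 ATAC-seq peaks, of which 4 and 1 were in the promoter, and all its other H3K4me3 and H3K27ac peaks lay at promoters of other genes.

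*Lats2* (ENSMUSG00000021959.16, chr14:57689662-57758388, minus strand) had the highest H3K4me3 of the 10 genes. Its fold was 47.7 in replicate 1, above 98.4% of marked genes and rank 190 of all listed H3K4me3 peaks, and 42.5 in replicate 2, above 99.8% and rank 22. ATAC-seq there was 13.5 and 10, and H3K27ac was 30.7 and 19.9. These peaks did not lie at the first annotated start site but 11.8 kb further downstream, at a group of 4 start sites. Within 1 kb of the first start site, ATAC-seq reached 4.68 and 4.22 and 0 histone peaks were listed. Start sites 24.1 kb and 58.5 kb downstream had 0 histone peaks within 1 kb as well. *Gm20430*, *Gm26440* and *Gm49361* start within 3 kb of a *Lats2* start site, so that the signal may not be that of *Lats2* alone.

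RefSeq gives *Lats2* 2 promoters, which are shown side by side. One coincides with the marked group of start sites and the other lies near the start site 24.1 kb downstream. The latter is called unmarked here because it had 0 peaks within 1 kb in any list. Low H3K27ac peaks of 3.02 and 3.68 did reach the edge of its 3 kb promoter window. The first has a GC content of 71.7%, a ratio of observed to expected CpG of 0.978 and 1 GGAATG, and the second 42.7%, 0.293 and 0. Both were chosen after their peaks had been seen.
*Lats2*, marked start (chr14:57746074-57746373, minus strand): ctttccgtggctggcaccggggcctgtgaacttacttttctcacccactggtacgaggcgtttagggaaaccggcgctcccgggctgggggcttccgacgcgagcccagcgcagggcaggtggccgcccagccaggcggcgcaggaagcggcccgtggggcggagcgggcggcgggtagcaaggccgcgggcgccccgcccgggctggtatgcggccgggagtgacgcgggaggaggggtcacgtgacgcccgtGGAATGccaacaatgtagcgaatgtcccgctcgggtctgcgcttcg
*Lats2*, unmarked start (chr14:57734369-57734668, minus strand): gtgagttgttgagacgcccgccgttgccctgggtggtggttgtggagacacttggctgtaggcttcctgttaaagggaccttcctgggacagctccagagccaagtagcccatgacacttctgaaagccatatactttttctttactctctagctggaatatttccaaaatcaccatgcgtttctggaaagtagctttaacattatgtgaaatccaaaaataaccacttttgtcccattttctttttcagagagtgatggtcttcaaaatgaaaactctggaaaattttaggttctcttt

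*Vgll2* and *Vgll3* encode Vestigial-like co-factors that bind TEAD proteins, and *Vgll2* is known from differentiating skeletal muscle. *Vgll2* (ENSMUSG00000049641.14, chr10:52022502-52028471, plus strand) had folds of 12.6 and 11.6 in ATAC-seq, 22.6 and 18 in H3K4me3, and 9.58 and 7.72 in H3K27ac. Its H3K27ac was above 29.5% and 24.1% of the marked genes, second lowest among the 9 marked genes after *Tead2* in both replicates. H3K4me3 covered much of this gene of 5.97 kb, with a promoter peak of 4428 bp and 2578 bp and another peak of 11.5 and 8.62 towards the 3′ end, 5.18 kb and 5.15 kb from the first start site.

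*Vgll3* (ENSMUSG00000091243.2, chr16:65815257-65866368, plus strand) had folds of 10.6 and 8.94 in ATAC-seq, 30.8 and 24.7 in H3K4me3, and 22.9 and 14 in H3K27ac. It had the widest promoter peaks of the 10 genes in both replicates, 5105 bp and 3948 bp of H3K4me3 and 5045 bp and 3416 bp of H3K27ac. Both marks continued into the gene in smaller peaks, up to 13.1 kb from the first start site in replicate 1. The widest H3K27ac peak exceeded that of 99.7% and 99.2% of the marked genes.

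**Figure D3:**
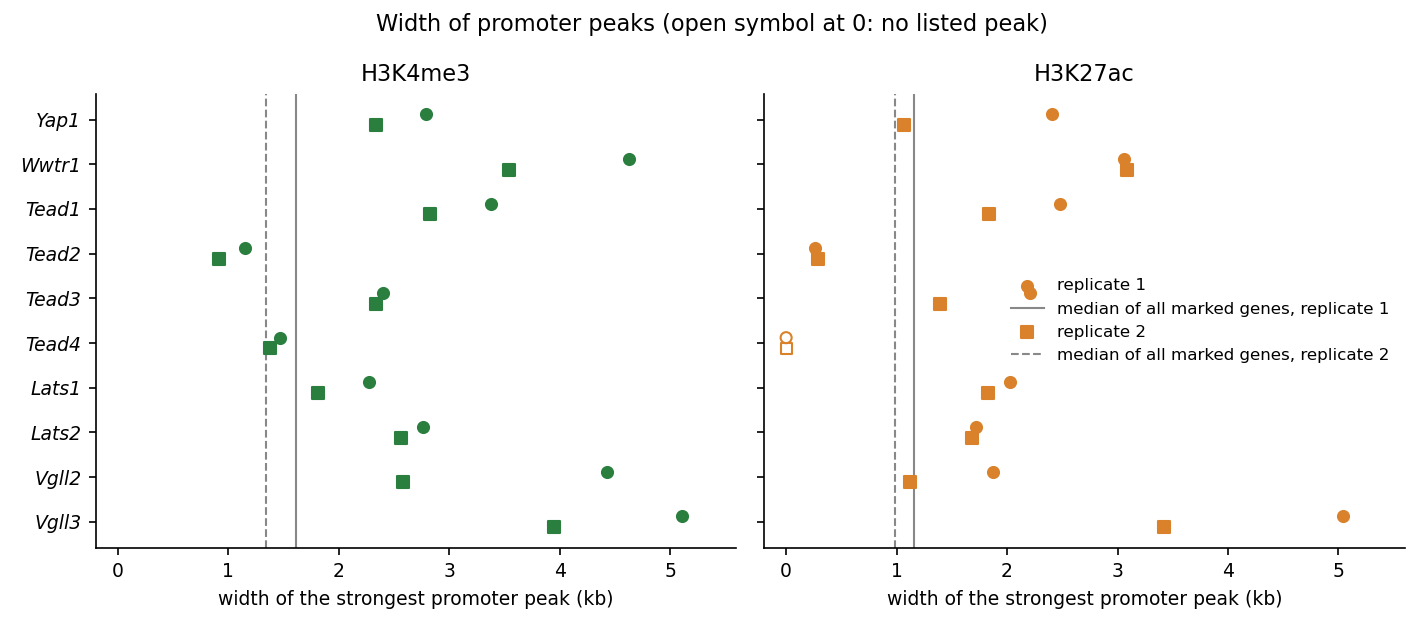
Width in kb of the strongest H3K4me3 and H3K27ac promoter peak of each gene, with circles for replicate 1 and squares for replicate 2, open symbols at 0 for no listed peak, and grey lines at the medians of all marked protein-coding genes. *Vgll3* (5.11 and 3.95 kb) and *Wwtr1* (4.63 and 3.54 kb) have broad H3K4me3, and *Tead2* lies below the medians in both marks.

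Over the 10 genes, the median width of the strongest H3K4me3 peak was 2774 bp and 2452 bp, beside 1615 bp and 1338 bp over all marked genes. *Tead2* was below the median of all genes in both replicates, and *Tead4* was below it in replicate 1 and just above it in replicate 2. The other 8 genes were above it in both.

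The 10 windows, promoters included, held 247 and 182 ATAC-seq peaks, of which 49 and 37 lay in the promoter of the gene itself, 47 and 31 at promoters of other genes and 103 and 76 in the body of the gene itself. Per 100 kb of window, the median was 14.3 and 11.3 peaks, beside 8.49 and 5.9 over all protein-coding genes. H3K27ac had 50 and 42 peaks in the windows, with medians of 3.18 and 2.84 per 100 kb beside 1.49 and 1. The windows were longer than most, with a median of 160 kb beside 117 kb. Replicate 1, whose lists were longer except for H3K27me3, had peaks that replicate 2 lacked. Of the ATAC-seq peaks in these windows 76.1% and 89% overlapped a peak of the other replicate, and of the H3K27ac peaks 64% and 95.2%.

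**Figure D4:**
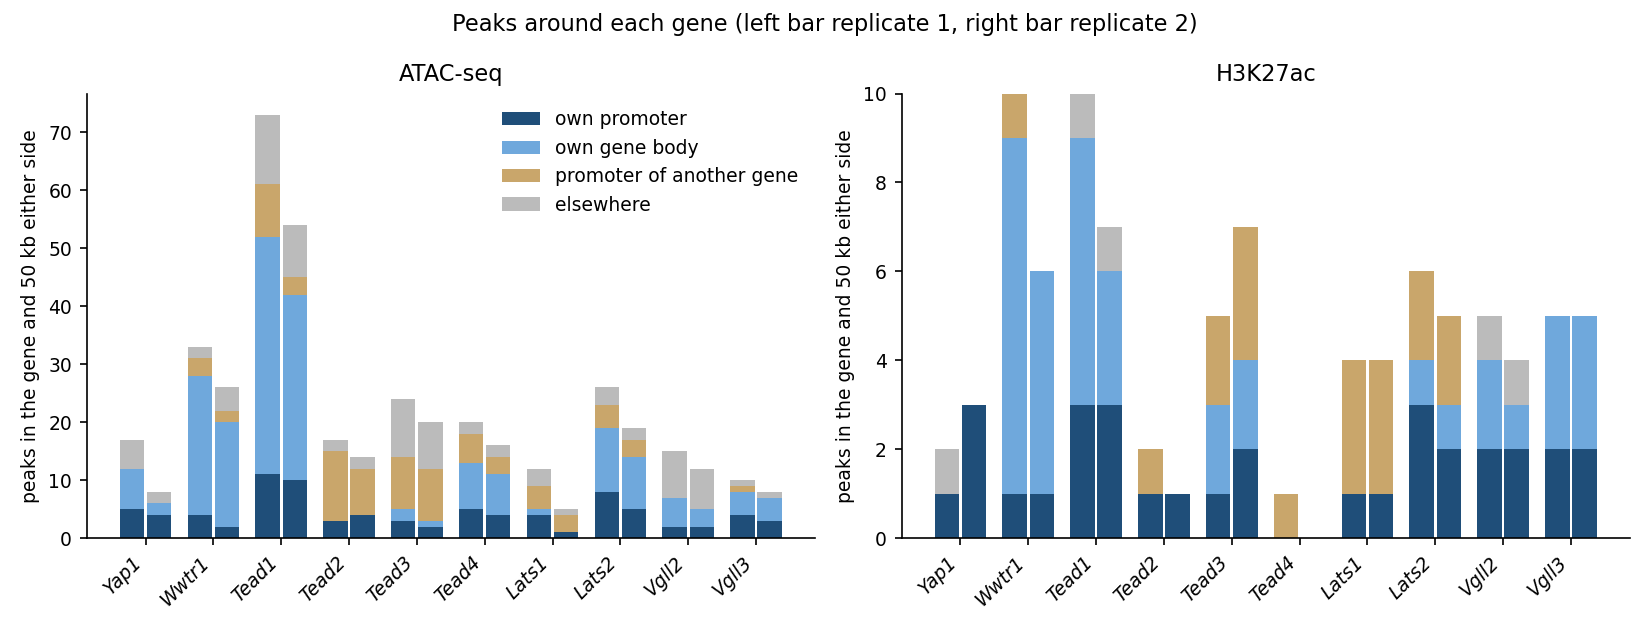
Number of ATAC-seq and H3K27ac peaks in each gene and 50 kb either side, stacked by place (own promoter, own gene body, promoter of another gene, elsewhere), with replicate 1 as the left and replicate 2 as the right bar. *Tead1* has the most ATAC-seq peaks (73 and 54), most of them in its own gene body, and *Tead4* has 1 and 0 H3K27ac peaks.

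*Tead1* had 73 and 54 ATAC-seq peaks, 41 and 32 of them in its 227 kb gene body, and more per 100 kb than 93.1% and 91.4% of protein-coding genes. *Wwtr1* came next with 33 and 26 peaks, 24 and 18 in the gene body. *Wwtr1* and *Tead1* also had the most H3K27ac peaks in replicate 1, with 10 each, and had 6 and 7 in replicate 2, where *Tead3* had 7 too. In the bodies of the shorter genes *Tead3* and *Lats1* few ATAC-seq peaks were listed, 2 and 1 in *Tead3* and 1 and 0 in *Lats1*.

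An ATAC-seq peak found in both replicates, over 3 kb from any annotated start site and overlapping H3K27ac in both replicates was counted as an open distal element with H3K27ac. The 10 windows held 110 open distal peaks, of which 16 (14.5%) carried H3K27ac, beside 4000 of 48588 (8.23%) in the genome. *Tead1* had 7 such elements, *Wwtr1* 3, *Tead3* 2, *Vgll2* 2, *Lats2* 1 and *Vgll3* 1, and 14 of the 16 lay inside the gene. The 7 elements of *Tead1* lay in 4 H3K27ac peaks of replicate 1, since close ATAC-seq peaks were counted singly. At least 1 element was present for 6 of the 10 genes and for 14.7% of all protein-coding genes, and *Yap1*, *Tead2*, *Tead4* and *Lats1* had 0. A long gene has a larger window and more room for an element, and an element in a window need not act on the gene.

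**Figure D5:**
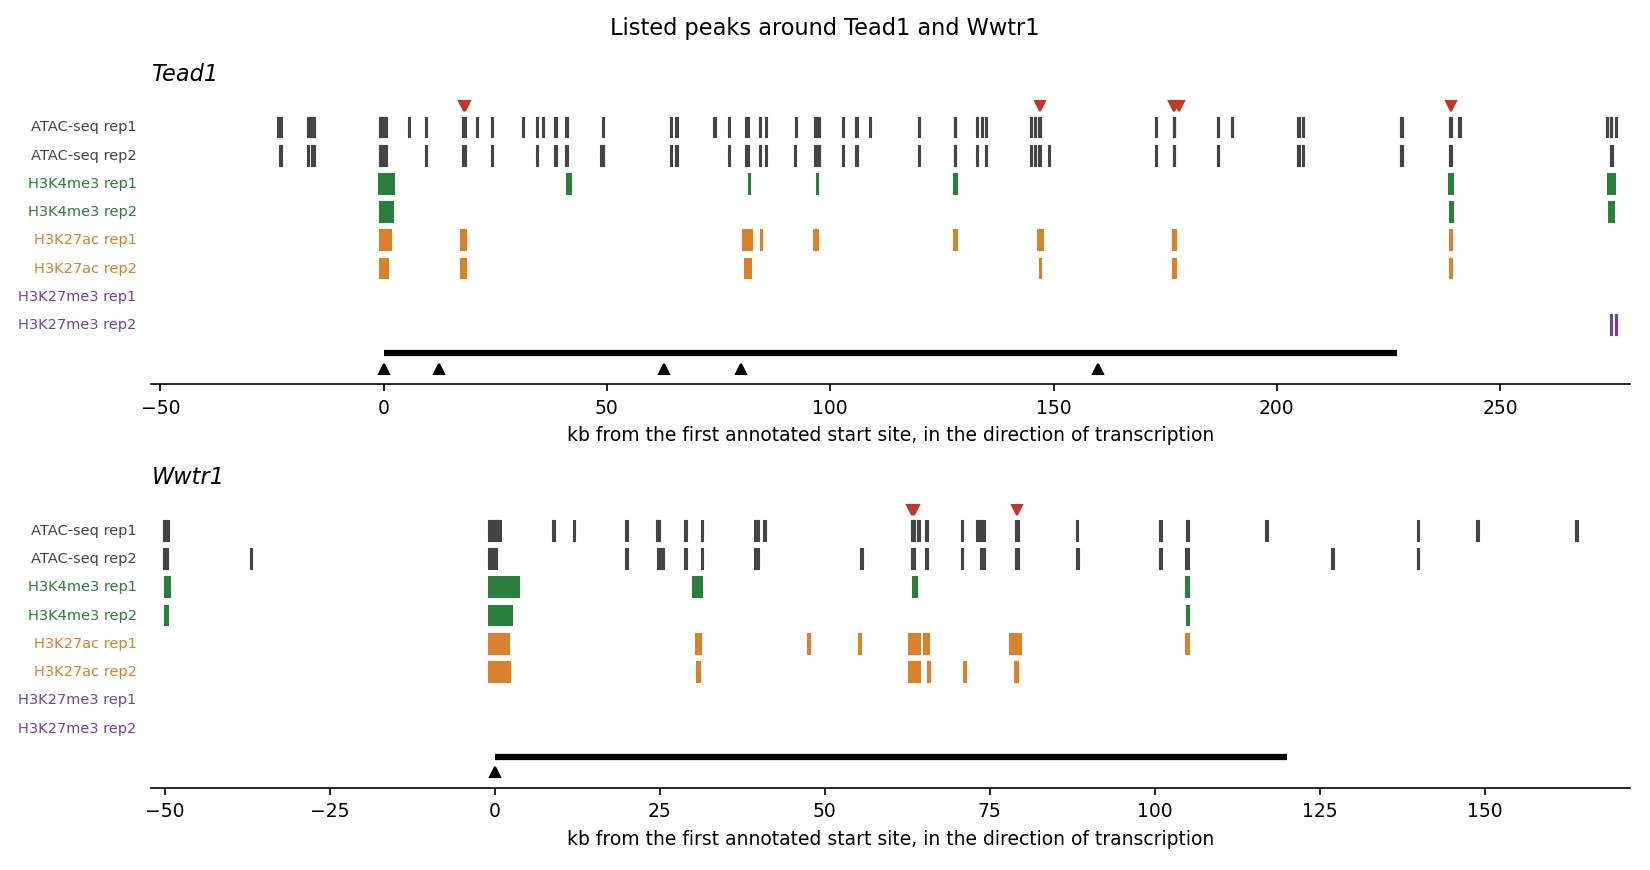
Listed peaks around *Tead1* and *Wwtr1*, drawn as in the plot of *Tead4*, *Tead2* and *Lats2*, with 1 line per library and red triangles at distal elements with H3K27ac in both replicates. The elements of *Tead1* run from 17.9 to 239 kb from its first start site and those of *Wwtr1* from 63.3 to 79.1 kb, and the wide H3K4me3 bars at 0 mark both promoters.

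The most open element by ATAC-seq lay in *Tead1*, 17.9 kb from its first start site (chr7:112697036-112697532), with ATAC-seq folds of 21.5 and 19.4 and H3K27ac of 7.66 and 5.15. It was more open than any *Tead1* promoter peak, the highest of which had 14.6 and 12.4. The next most open lay 40.7 kb upstream of *Vgll2* (chr10:51981544-51981985), with ATAC-seq of 18.6 and 19.9, above the promoter of that gene, and H3K27ac of 4.79 and 4.42. Neither carried H3K4me3 or H3K27me3 in either replicate. Then came an element in *Wwtr1*, 79.1 kb from its start (14.4 and 14.6 in ATAC-seq, 5.64 and 4.34 in H3K27ac), whereas the pair of *Wwtr1* elements at 63.3 and 63.6 kb had stronger H3K27ac, 10.6 and 9.49, in 1 shared peak. The *Vgll3* element, 3.71 kb from the first start site, overlapped H3K27ac of 22.9 and 7.93, in peaks that both reached into the *Vgll3* promoter. In replicate 1 that peak was the strongest promoter peak itself. The same element overlapped H3K4me3 of 30.8 and 2.9. The elements farther away in *Tead1* were weaker, with ATAC-seq folds between 4.62 and 8.4.

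The 300 bases around the replicate 1 summit of the 2 most open elements are shown because they are the most open distal sequence with H3K27ac near these genes (plus strand, GRCm38.p6). Capitals mark TGANTCA, the AP-1 site, and would mark GGAATG, of which neither holds a copy.
*Tead1* element (chr7:112697108-112697407): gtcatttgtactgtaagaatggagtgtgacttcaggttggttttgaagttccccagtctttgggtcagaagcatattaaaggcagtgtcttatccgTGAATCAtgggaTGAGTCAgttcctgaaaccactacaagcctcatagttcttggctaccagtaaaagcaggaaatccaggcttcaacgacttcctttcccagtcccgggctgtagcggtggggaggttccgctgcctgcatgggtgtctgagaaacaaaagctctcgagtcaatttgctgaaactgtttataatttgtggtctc
*Vgll2* element (chr10:51981660-51981959): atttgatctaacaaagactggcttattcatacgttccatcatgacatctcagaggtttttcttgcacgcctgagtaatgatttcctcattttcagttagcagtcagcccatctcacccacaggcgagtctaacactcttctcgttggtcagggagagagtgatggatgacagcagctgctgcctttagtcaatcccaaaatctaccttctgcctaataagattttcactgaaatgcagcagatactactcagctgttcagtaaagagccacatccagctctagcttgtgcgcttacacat

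The *Tead1* element held 2 AP-1 sites and 1 E box, and the *Vgll2* element 0 and 2. Over the 16 elements, AP-1 sites were in 5 (31.2%), beside 25.4% of all 4000 elements, GGAATG was in 4 (25%), beside 18.6%, and an E box in 14 (87.5%), beside 85.5%. With so few elements, some of them adjacent, a single element moves each share by several percentage points.

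The distance to H3K27me3 varied widely among these genes and between replicates. The nearest listed peak lay 3288 kb and 897 kb from the first start of *Yap1*, 172 kb and 114 kb from that of *Wwtr1*, and 654 kb and 1113 kb from that of *Vgll2*. For *Lats1* it was 220 kb and 90.5 kb. *Tead3* (208 kb and 12.1 kb) and *Tead4* (154 kb and 14.8 kb) had a near peak in replicate 2 alone. These near peaks had a low −log10 q of 0.451 for *Tead3* and 1.45 for *Tead4*, and the *Wwtr1* peak of replicate 2 had 0.451. Of the 6 H3K27me3 peaks in the windows in replicate 1, all 6 lay upstream of *Tead2* at promoters of other genes, where replicate 2 had 13. The closest of them was 33.7 kb and 32.7 kb from the first *Tead2* start. In replicate 2 alone, *Tead1* had 3 peaks in its window at a promoter of another gene 275 kb downstream of its start, *Tead3* had 4, and *Tead4* had 1 in the gene body with a fold of 2.3. Of these 21 peaks in replicate 2, 19% shared sequence with a peak of the other library.

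Upstream of the kinases LATS1 and LATS2 lie the kinases MST1 and MST2 (from *Stk4* and *Stk3*) with their partners, and scaffold and junction proteins that feed into them. The list counted here as upstream also holds genes whose proteins bind YAP or phosphorylate LATS proteins themselves. Of its 20 genes, 20 had ATAC-seq at the promoter in both replicates (67.8% of all protein-coding genes) and 20 had H3K4me3 (60.8%). H3K27ac was found at 17 (46.6%) and H3K27me3 at 1 (4.81%). The highest H3K27ac folds were those of *Amotl2*, an angiomotin that binds YAP (33.3 and 31.3), and *Map4k4*, a kinase that can phosphorylate LATS proteins (31.8 and 28). The 3 genes without H3K27ac in both replicates were *Wwc1*, which encodes the scaffold KIBRA, *Taok3* and *Amot*. *Wwc1* alone had H3K27me3, at 3.75 and 3.42, next to H3K4me3 of 13.5 and 9.62. Both H3K27me3 folds were below the medians of their lists, 3.93 and 3.76. H3K27me3 peaks of the same folds nearest to the 10 genes had a −log10 q of 0.934 and 0.957. *Taok3* (8.41) and *Amot* (4.98) had H3K27ac in replicate 1 alone. Among the other Vestigial-like genes, *Vgll4* had H3K27ac of 11.5 and 11.7 and *Vgll1* had 0 promoter peaks in any list.

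The promoters of genes known as targets of YAP and TAZ were counted in the same way. Of 15 target genes, 15 were open in both replicates (67.8% of all protein-coding genes), 14 had H3K4me3 (60.8%), 8 had H3K27ac (46.6%) and 2 had H3K27me3 (4.81%). The H3K27ac count is thus near the share of all genes. The highest H3K27ac folds were those of *Asap1* (19.9 and 17.7) and *Tgfb2* (12.6 and 10.2), and the long-known targets *Ccn1* and *Ankrd1* had 9.96 and 6.62, and 8.05 and 9.56. *Ccn2*, *F3*, *Gadd45b*, *Fjx1* and *Foxf2* had 0 H3K27ac promoter peaks, and *Nuak2* and *Myof* had one in replicate 1 alone. *Fjx1* (5.25 and 4.79) and *Foxf2* (6.38 and 5.13) carried H3K27me3 together with H3K4me3. *F3* had H3K27me3 of 4.13 in replicate 1 alone, next to H3K4me3 of 22.6 and 14.6. *Gadd45b* was open, at 7.49 and 6.17, with 0 histone peaks. Values for *Ccn1*, *Ankrd1*, *F3*, *Fjx1* and *Foxf2* are given beyond the rule for named genes and were chosen after they had been seen.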

How the data were processed

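The deposited peak lists of 8 libraries from MuSCs were used, 1 list per library, with replicates not pooled. According to the paper and the submitters' notes, the authors trimmed reads (Trim Galore 0.6.10), aligned them to mm10 (BWA 0.7.17-r1188), discarded poorly mapped and duplicate reads as well as those in blacklisted regions (SAMtools 1.5, bedtools), shifted ATAC-seq alignments to the Tn5 cut (deepTools 3.5.5) and called peaks with MACS2 2.2.6. The deposited values are the authors' fold enrichment, a ratio of summit signal to local background, their −log10 p-value and −log10 q-value, a score derived from these, and the summit offset. H3K27me3 peaks were listed by p-value. The other libraries of the 272 in the series, among them the edited samples, were not used here.

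Peaks on the 21 assembled chromosomes were set against GENCODE M21. Overlap was counted from 1 bp, a gene was marked where each replicate had a promoter peak, and its value is its strongest promoter peak. Groups of start sites were split at gaps over 1 kb. The depth is unknown, since the lists hold no read counts. No test was run. Alternatives were a promoter of 1 kb, protein-coding transcripts only, flanks of 10 or 100 kb, a −log10 q of at least 5, an overlap of 50% and each replicate alone. Overlap code was tested on simulated data. Python 3.11.15, numpy 2.4.6, pandas 2.3.3, samtools 1.23.1 and matplotlib 3.10.9 were used, and promoter sequences are from RefSeq (GRCm38.p6).

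The members and all gene lists were chosen with earlier results of these data known. All 10 members are described. For upstream and target genes, values are given for the highest 2 and lowest 2 by H3K27ac fold (lower replicate, ties at 0 named together) and for genes without H3K4me3. The rule for sequences named *Yap1*, *Wwtr1*, any member in another promoter state and the 2 most open elements. *Tead4*, the member in another state, had no RefSeq promoter entry, so its sequence is not shown. Other sequences were added afterwards.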

Additional observations from a re-analysis of the deposited data

How the results depend on the processing

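The counts of promoters marked by ATAC-seq (10), H3K4me3 (10), H3K27ac (9) and H3K27me3 (0) stayed within 1.5 times under every alternative tried for them, the one shift being H3K27ac at 8 genes with a −log10 q of at least 5. Some of these outcomes were fixed in advance. The same genes were marked in either replicate as in both, so that leaving out a replicate could not change these counts. With H3K27me3 at 0, settings that only remove peaks, start sites or promoter bases could not change that count. Of 48 alternatives over all counts, 39 stayed within 1.5 times of the reported count, the fixed ones among them, and 9 did not. H3K4me3 peaks in the windows rose from a mean of 38 to 60.5 with 100 kb either side, and H3K27ac peaks fell from 46 to 30.5 with a −log10 q of at least 5. H3K27me3 peaks, 13.5 in the mean, were 0.5 with 10 kb, 21.5 with 100 kb and 0 with a −log10 q of at least 5, and 6 to 21 with either replicate alone. Open distal elements with H3K27ac were 16, against 10 with a −log10 q of at least 5, and 14 to 33 with either replicate alone, where the higher number is that of replicate 1. The causes were not tested beyond the longer windows and fewer peaks that these settings bring. No paired analysis was possible because the results come from no test. With 2 replicates and no read counts, a missing peak may reflect depth in any of the lists.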

Other observations

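Several of the most open regions around these genes carried no H3K27ac. Most open distal peaks lacked it, since 14.5% of those in these windows and 8.23% of those in the genome carried it in both replicates. In the body of *Tead1*, an ATAC-seq peak 41 kb from the first start site had folds of 20.6 and 17.7, and another at 205 kb had 17.3 and 16.5, and neither was among the elements with H3K27ac. The first overlapped a weak H3K4me3 peak of 3.52 in replicate 1 alone. In *Wwtr1*, the most open region lay 74 kb into the gene, with 21 and 18.3 and 0 histone peaks over it, above the *Wwtr1* promoter at 15.1 and 12.6.

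In *Tead4*, the gene without H3K27ac at its promoter, a region 14.9 kb from the first start site had ATAC-seq folds of 20.6 and 23.3, above the 8.35 and 8.59 at the first start sites. The single H3K27me3 peak of the *Tead4* window, found in replicate 2 alone with a fold of 2.3, overlapped this region. Further open regions lay at 35.5 kb (17.1 and 12.7) and 64 kb (13.3 and 12.3). None of these regions overlapped a listed H3K27ac peak. These regions were chosen after their values had been seen.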
